A study of Arabidopsis thaliana with 2 samples.

Results

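The 200 brightest nuclear transcripts of iron-fed pericycle were taken from 1 column of values, of cells sorted after growth with iron. They were followed in 1 column of cells sorted after iron was withheld. Of 22801 probe sets on the array, 55 were Affymetrix controls and 22746 were plant probe sets, of which 13513 named 1 gene. Setting aside 92 plastid or mitochondrial ones left 13421 nuclear probe sets of 13270 genes. These were ranked by their value with iron, rank 1 being the brightest, and the first 200, each of a different gene, are the members described here. The values with iron therefore chose the members, and every value below is a description without a test.

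Both arrays came from Columbia roots of Arabidopsis thaliana carrying J2661, a GFP reporter line in which the pericycle fluoresces, and the roots were protoplasted and the fluorescent cells sorted. Seedlings grew for 6 days on standard medium. The -Fe roots then spent 24 h on medium whose iron salt was replaced by Ferrozine, an iron chelator, and the +Fe roots spent 24 h on medium with Fe(III)-EDTA, so both groups share the reporter, the transfer and the protoplasting. Each condition is represented by 1 column of values, labelled replicate 1 and taken here as 1 array. The labels also give 3 biological replicates per line, and whether the column averages them is not stated. With 1 column per condition no spread between replicates is known, and in a sorted bulk sample fewer cells of a type and less RNA per cell cannot be told apart.

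The pericycle is the outermost cell layer of the root stele, just inside the endodermis. Lateral roots begin in it, and it lies beside the xylem that carries iron and other nutrients to the shoot. Genes of primary metabolism, protein turnover and stress protection are commonly among the strongly expressed genes of plant roots. A probe set's brightness also depends on how well its probes hybridise and on how near they lie to the transcript's 3' end, which amplification in rounds favours, so the ranks order probe sets and are not transcript abundance.

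The members held deposited intensities, on a linear scale of unstated unit, of 8.46 to 83.5 in the -Fe cells, with a median of 16.3. In the +Fe cells they held 7.3 to 62.8, with a median of 10.6. Over all 13421 nuclear probe sets the medians were 0.756 in the -Fe cells and 0.790 in the +Fe cells. The members were 1.49% of these probe sets and made up 17.0% of their summed intensity in the -Fe cells and 14.4% in the +Fe cells.

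The naming step bounds what the list can hold. The member with the lowest value with iron was rank 527 among all plant probe sets. Of those 527, 219 named 1 gene, 24 named several and 284 named none, and the last 2 kinds were not analysed here. Among the 219 were 19 of the plastid or mitochondrial probe sets. Of the 200 members, 44 carry a gene name in the reference gene table or its synonyms, and 156 are known there by a locus tag alone and are given without a role.

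The 3 brightest members with iron had locus tags only. AT3G53980 read 83.5 in the -Fe cells and 62.8 in the +Fe cells, and it ranked 1 in both. AT1G48750 read 71.3 in the -Fe cells and 50.1 in the +Fe cells, and it ranked 2 in both. AT4G30450 read 51.5 in the -Fe cells, where it ranked 5, and 40.6 in the +Fe cells. The first 2 thus kept their ranks, and the third stayed within the first 5.

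LCR69 and LCR68, named for low-molecular-weight cysteine-rich peptides, a family related to plant defensins, came next. LCR69 read 63.5 in the -Fe cells, at rank 3, and 39.9 in the +Fe cells, at rank 4. LCR68 read 50.8 in the -Fe cells, at rank 6, and 34.6 in the +Fe cells, at rank 5. The peroxidase gene PRXR1 read 55.1 in the -Fe cells, at rank 4, and 33.5 in the +Fe cells, at rank 6. Secreted-type peptides and a haem peroxidase thus stood among the first 6 members in both columns.

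MSRB5, a methionine sulfoxide reductase that repairs oxidised methionine, read 37.9 in the -Fe cells and 29.7 in the +Fe cells. COR47, a dehydrin induced by cold and drought, read 48.8 in the -Fe cells and 29.6 in the +Fe cells. cICDH, the cytosolic NADP-dependent isocitrate dehydrogenase, read 37.6 in the -Fe cells and 28.4 in the +Fe cells and ranked 9 in both. AT3G11930, without a name, read 33.7 in the -Fe cells, at rank 11, and 27.3 in the +Fe cells, at rank 10. It was the single member of the first 10 that left them, and AT5G10580, with 34.1 in the -Fe cells and 24.2 in the +Fe cells, moved to rank 10 in its place.

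The members from rank 11 to 25 lay between 22.4 and 34.1 in the -Fe cells and between 18.6 and 24.4 in the +Fe cells. They include GAPC2, a cytosolic glyceraldehyde-3-phosphate dehydrogenase of glycolysis, with 31.2 in the -Fe cells and 24.4 in the +Fe cells. APA1, an aspartic proteinase, read 29.6 in the -Fe cells and 19.9 in the +Fe cells. PYK10, the beta-glucosidase of root ER bodies, read 33.3 in the -Fe cells and 19.1 in the +Fe cells. GAPC2 ranked 16 in the -Fe cells and 11 in the +Fe cells, while PYK10 climbed 10 places to rank 12.

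TPI, the cytosolic triosephosphate isomerase of glycolysis, read 22.5 in the -Fe cells, at rank 44, and 18.6 in the +Fe cells, at rank 24. The other members of these ranks were known by locus tag alone. Of them, AT3G60245 (26.1 in the -Fe cells and 22.3 in the +Fe cells) and AT3G09200 (22.4 in the -Fe cells and 18.6 in the +Fe cells) fell by 20 and 22 places. AT3G62040 gained 4 places, with 32.1 in the -Fe cells and 20.6 in the +Fe cells. AT5G20290, AT1G52300, AT1G22410, AT4G27280, AT5G65660, AT4G29780 and AT5G15200 moved by 1 to 12 places.

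**Figure D1:**
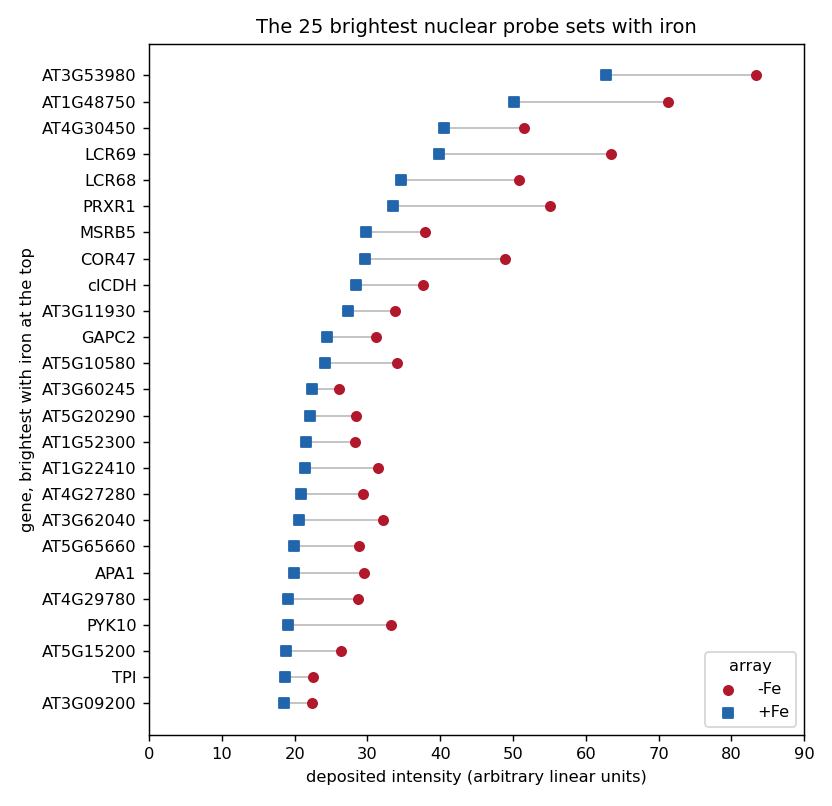
Deposited intensity, in arbitrary linear units, of the 25 brightest nuclear probe sets with iron, one row per gene, as red circles in the -Fe array and blue squares in the +Fe array. All 25 circles lie to the right of their squares, from 22.4 to 83.5 in the -Fe cells and from 18.6 to 62.8 in the +Fe cells.

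All 200 members had a higher deposited value in the -Fe cells than in the +Fe cells, whereas 49.9% of all plant probe sets did. Their log2 differences, -Fe minus +Fe, ran from 0.10 to 1.32 with a median of 0.56, against a median of -0.081 over all nuclear probe sets. The 200 probe sets ranked next had a median of 0.63, and 195 of them were higher in the -Fe cells, so the shift extends past the members. At least 1.5-fold higher values were seen for 91 members, or 45.5%, where 12.6% of all plant probe sets reached that size. No member was at least 1.5-fold lower, a size that 0.233% of all plant probe sets reached. At least 2-fold higher values were seen for 2 members, against 1.08% of all plant probe sets, and no member was at least 2-fold lower, against 0.0176%. The next 200 held 108 probe sets of the 1.5-fold size and 8 of the 2-fold size.

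This direction rests on the scaling of the columns. When the difference of probe sets of like brightness was subtracted, the members' median was -0.039, with 87 members above 0 and 113 below, where 49.2% of all plant probe sets lay below 0. On this scale 1 member stood at least 1.5-fold higher, against 0.567% of all plant probe sets, and none at least 1.5-fold lower, against 0.774%. Quantile normalization of the pair gave a median of -0.035, and removing a fitted offset and scale factor gave -0.17. The subtraction and the quantile normalization bring bright probe sets near 0 by design, so their medians cannot decide the direction. The text below gives the relative difference beside some of the larger changes, and other differences are as deposited. For 14 genes with more than 1 probe set, each at or above the median plant value in at least 1 column, the pooled SD of the differences within a gene was 0.33.

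**Figure D2:**
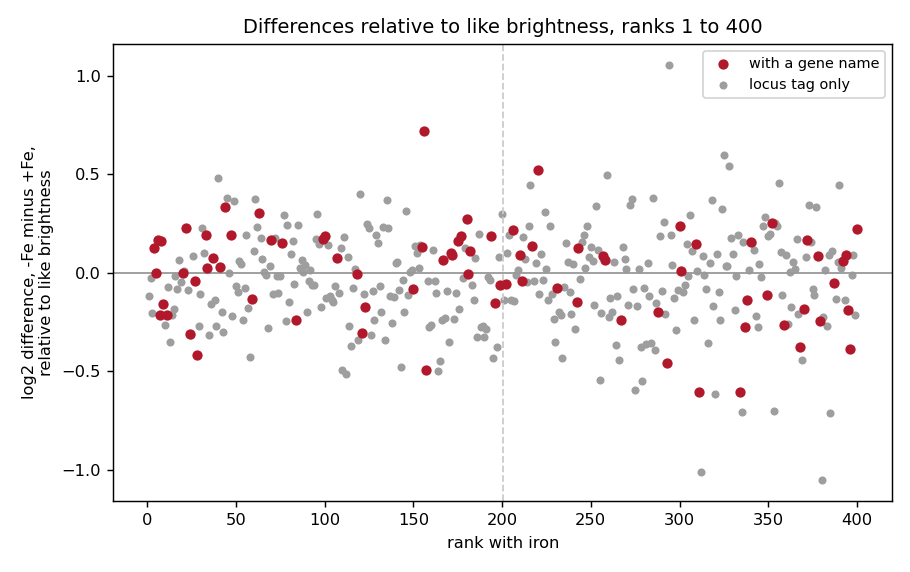
The log2 difference, -Fe minus +Fe, relative to probe sets of like brightness, plotted against rank with iron for the 200 members (left of the dashed line) and the next 200, with genes that carry a name in red and those with a locus tag only in grey. The members scatter about 0 with a median of -0.039, between -0.51 and 0.72, and the next 200 have a median of 0.0064.

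By the authors' deposited table, q lay under 0.05 for 130 members, or 65.0%, where it did for 61.3% of all plant probe sets. The members' share is thus near that of all plant probe sets. For 71 members, or 35.5%, q lay under 0.01 by the authors' deposited table, a share below the 42.3% of all plant probe sets. The 130 had a median log2 difference of 0.66 and the other 70 of 0.36, by the values of the pair. Of the first 25 members, 14 reached q under 0.05 by the authors' deposited table, and none of the 3 brightest did.

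LTI30, a dehydrin of cold- and drought-treated plants, had the largest difference of the 200. It read 20.8 in the -Fe cells and 8.33 in the +Fe cells, a log2 difference of 1.32, and 0.72 relative to like brightness. It stood at rank 58 in the -Fe cells, against rank 156 in the +Fe cells, and this gain of 98 places was the longest climb of any member. The authors' deposited table gives it q = 0.000564. LTI30 was the 1 member at least 1.5-fold higher relative to like brightness.

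AT4G33550 followed with 33.1 in the -Fe cells and 15.9 in the +Fe cells, a log2 difference of 1.06 and a relative difference of 0.48, and it ranked 13 in the -Fe cells and 40 in the +Fe cells. AT1G74840 read 19.4 in the -Fe cells and 9.72 in the +Fe cells, a log2 difference of 1.00. Its q, 5.95e-06, was the lowest of any member in the authors' deposited table. AT1G31710, AT2G37870, AT2G38800 and AT2G16005 had log2 differences of 0.97, 0.96, 0.96 and 0.95. None of these genes has a name in the tables.

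PMEAMT, the N-methyltransferase of phosphoethanolamine on the way to phosphatidylcholine, completed the 8 largest differences. It read 29.0 in the -Fe cells and 15.3 in the +Fe cells, a log2 difference of 0.92 and a relative difference of 0.34. It moved up 21 places to rank 23. LTI30 and PMEAMT were the genes with a name among the 8. All 8 lay above probe sets of like brightness, by 0.34 to 0.72, which picking the largest differences favours.

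The smallest difference belonged to AT3G22440, with 10.7 in the -Fe cells and 9.98 in the +Fe cells, a log2 difference of 0.10. AT5G03610 and AT4G32470 differed by 0.12 each. ORA47, an AP2/ERF factor of the jasmonate response, read 9.05 in the -Fe cells and 8.33 in the +Fe cells, a log2 difference of 0.12. AT2G47320, AT1G07750 and AT5G14030 differed by 0.14, 0.17 and 0.17.

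SWEET11, a sucrose efflux carrier known from the phloem of leaves, was the brightest of the 8 with the smallest differences. It read 20.0 in the -Fe cells and 17.8 in the +Fe cells, a log2 difference of 0.17, and -0.42 relative to like brightness. It ranked 67 in the -Fe cells and 28 in the +Fe cells. By the authors' deposited table q was above 0.05 for all 8 of these members, where it lay under 0.05 for 61.3% of all plant probe sets. The 8 were picked for small differences, so nothing is read from this.

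Counted in places, the order of the members changed little at the top and more at the bottom. Values lie farther apart at the top, so a like fold change moves a member fewer places there. Relative to like brightness, log2 differences ran from -0.42 to 0.48 for ranks 1 to 50. For ranks 151 to 200 they ran from -0.50 to 0.72. Among the 200 brightest nuclear probe sets of the -Fe cells 172 members remained, where 1.49% of all nuclear probe sets have such a rank. Of the first 10 members 9 stayed in the first 10, of the first 25 19 stayed in the first 25, of the first 50 43 stayed in the first 50, and of the first 100 90 stayed in the first 100. Towards the brightest moved 80 members, away from it moved 115, and 5 kept their rank. The median change was 5 places downwards, over a range of 98 places up to 172 places down.

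A change of at least 100 places was seen for 12 members, all of them downwards, where 81.9% of all nuclear probe sets moved that far. Most nuclear probe sets have values far closer together, so the 81.9% does not measure how steady the members were. The rule favours falls, since it took the brightest by the +Fe values and the first 100 cannot climb so far. Chosen by the -Fe values instead, the movers of that size would be 12 entrants, all of them upwards, so nothing is read from the direction. Of the 12 members, 3 stood at ranks 101 to 150 with iron and 9 at ranks 151 to 200, and no member of the first 100 moved so far. AT4G30010 fell by 172 places, with 8.46 in the -Fe cells and 7.44 in the +Fe cells. AT4G32470 fell by 167 places, ORA47 by 163, AT3G04840 by 150, and AT2G47320 and AT5G14030 by 146 each. AT3G22440 and AT2G46540 fell by 119 and 116 places. All of these still had the higher value in the -Fe cells.

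**Figure D3:**
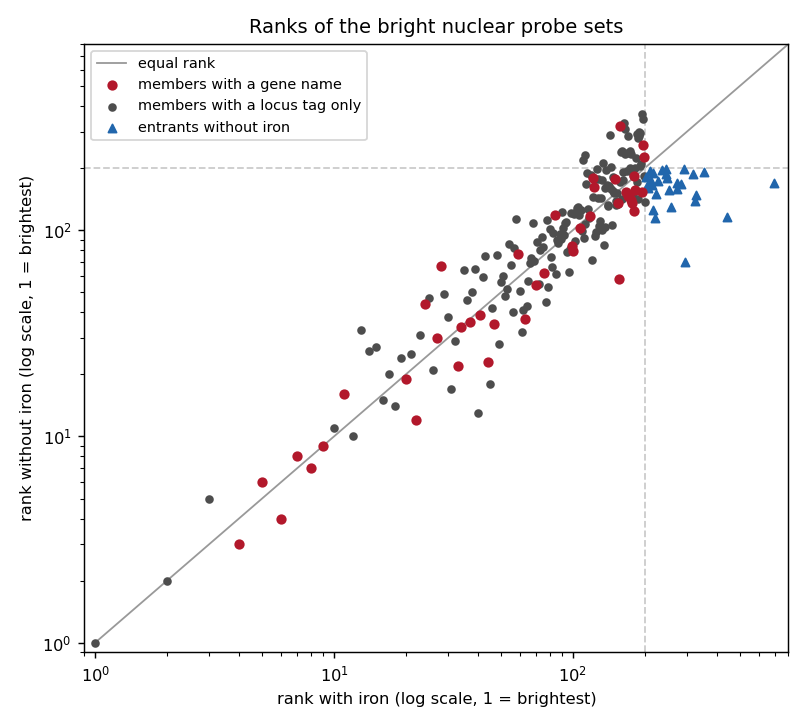
Rank without iron against rank with iron, both on log axes with 1 the brightest, for the 200 members (red, with a gene name; grey, with a locus tag only) and the 28 probe sets that entered the first 200 without iron (blue triangles). The solid line marks equal rank and the dashed lines rank 200. On these axes distance from the line is a ratio of ranks, and points lie on both sides of the line along its length. The 28 members above the horizontal dashed line all stood at rank 110 or lower with iron.

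The 28 members that left the first 200 stood at rank 110 or lower with iron, 5 of them at ranks 101 to 150 and 23 at ranks 151 to 200. Their values ran from 8.46 to 11.4 in the -Fe cells and from 7.31 to 9.99 in the +Fe cells. All 28 were higher in the -Fe cells, by a median log2 difference of 0.34, and all 28 lay below probe sets of like brightness, as their loss of rank would have it. For 5 of them, or 17.9%, q lay under 0.05 by the authors' deposited table, where it did for 61.3% of all plant probe sets. Leaving the first 200 picks members with small differences, so nothing is read from this share. Of the 28, 3 carry a name in the tables.

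These 3 were ORA47, AT2G44060 and OEP16-3. AT2G44060, listed as late embryogenesis abundant protein LEA26, read 10.2 in the -Fe cells and 7.39 in the +Fe cells, and it ranked 258 in the -Fe cells. OEP16-3, named as an outer envelope protein, read 10.7 in the -Fe cells, at rank 226, and 7.31 in the +Fe cells, at rank 199. Each had the higher value in the -Fe cells and still lost its place.

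The 28 probe sets that took their places were not members, and 26 of them came from the next 200. Their values ran from 11.4 to 19.6 in the -Fe cells and from 3.55 to 7.27 in the +Fe cells. At least 2-fold higher were 9 of them, a size that 1.08% of all plant probe sets reached. Entry by a rise in rank picks probe sets with higher values and large differences, so nothing is read from either. AT5G54370 entered highest, at rank 70, with 19.6 in the -Fe cells and 6.2 in the +Fe cells, a log2 difference of 1.66. EXLB1, an expansin-like gene of a family of cell wall proteins, entered at rank 115 with 15.1 in the -Fe cells and 6.89 in the +Fe cells. AT3G10020 entered at rank 116 with 15.1 in the -Fe cells and 4.84 in the +Fe cells, where it ranked 442.

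The log2 differences of AT3G57020, AT5G54370 and AT3G10020, at 1.82, 1.66 and 1.64, exceeded that of LTI30. Entrants were picked for their rise in rank and members were not, so the 2 kinds are not alike. AT1G06760, AT2G07708, AT1G52070, AT3G56360 and AT4G34600 entered at ranks 125, 129, 139, 148 and 150. AT2G07708 was read by a probe set whose suffix marks probes shared by several sequences. What else that probe set reads was not tested. The longest climb into the first 200, of 523 places, was that of AT3G57020, which was singled out after its values were seen. It read 12.5 in the -Fe cells and 3.55 in the +Fe cells. GAMMA-VPE, a vacuolar processing protease, and GT72B1, a glucosyltransferase, also entered, at ranks 161 and 194.

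By the names in the reference table, dehydrin, LEA and cold-regulated genes gave 5 members out of 11 nuclear probe sets so named. Members were 44 of the 1700 nuclear probe sets with any name and 200 of all 13421. The name classes here and below are small and were chosen with results of these data known, so their shares are not read as enrichment. COR47 and LTI30 are given above. AT1G54410, listed as the dehydrin HIRD11, read 18.7 in the -Fe cells and 13.6 in the +Fe cells. SRC2, named for a soybean gene regulated by cold, read 14.9 in the -Fe cells and 9.85 in the +Fe cells. With AT2G44060 the 5 had a median log2 difference of 0.60, against 0.56 over all members, and 2 lay above and 3 below probe sets of like brightness. Dehydrins protect membranes and proteins when water is short.

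Enzymes whose names hold dehydrogenase, isomerase, reductase, decarboxylase or transferase gave 9 members of 170. SAMDC, the S-adenosylmethionine decarboxylase of polyamine synthesis, read 29.1 in the -Fe cells and 17.0 in the +Fe cells. HCT, the hydroxycinnamoyl transferase of lignin precursor synthesis, read 26.6 in the -Fe cells and 18.3 in the +Fe cells. Both kept a rank in the first 33 in either column. UGT74B1, the glucosyltransferase of glucosinolate synthesis, read 14.5 in the -Fe cells and 7.85 in the +Fe cells and climbed 56 places. BAT1, an acyltransferase acting on brassinosteroids, read 13.0 in the -Fe cells and 8.02 in the +Fe cells.

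The 9 enzymes had a median log2 difference of 0.54, and all 9 stayed in the first 200. Of these, cICDH, GAPC2 and TPI had log2 differences of 0.40, 0.35 and 0.27 and lay below probe sets of like brightness, at -0.16, -0.22 and -0.31. PMEAMT, UGT74B1 and SAMDC had 0.92, 0.88 and 0.77 and lay above, at 0.34, 0.27 and 0.19. By the authors' deposited table q lay under 0.05 for 7 of the 9, the exceptions being MSRB5 and TPI, beside 61.3% of all plant probe sets.

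Proteases and a protease inhibitor gave 4 members of 17. ATSBT5.2, a subtilase, read 24.2 in the -Fe cells and 15.8 in the +Fe cells, and SBT4.12, another subtilase, read 14.8 in the -Fe cells and 11.5 in the +Fe cells. CYS1, a cystatin that inhibits cysteine proteases, read 11.97 in the -Fe cells and 9.72 in the +Fe cells and lost 59 places. With APA1 these had the lowest median log2 difference of the name classes, 0.47. RALFL32, named as a member of the RALF family of peptide signals, read 24.7 in the -Fe cells and 13.3 in the +Fe cells and climbed 26 places to rank 37. With LCR69 and LCR68 it made 3 members out of 22 probe sets named as cysteine-rich or RALF-like, with a median of 0.67. The keywords missed the non-members APM1 and TPP2, named as peptidases, and RALFL22, so the totals of 17 and 22 are too low.

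The haem proteins among the names were PRXR1 and CYTC-1, 2 members of the 11 probe sets named as peroxidase or cytochrome c. Haem holds iron, and cytochrome c carries electrons in the respiratory chain. CYTC-1 read 12.7 in the -Fe cells and 9.42 in the +Fe cells, a log2 difference of 0.43 and -0.18 relative to like brightness, and it lost 39 places. PRXR1 had a log2 difference of 0.72 and 0.17 relative to like brightness. The pair thus lay on opposite sides of probe sets of like brightness.

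Of the DNA-binding factors, STZ, a zinc finger repressor of salt and cold responses, read 25.7 in the -Fe cells and 16.3 in the +Fe cells. BZIP53, a leucine zipper factor, read 16.3 in the -Fe cells and 10.2 in the +Fe cells. Their log2 differences were 0.66 and 0.68. These were 2 of the 4 nuclear probe sets that the keywords reached, which missed ORA47 because its listed name does not state its kind.

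Names of ubiquitin and autophagy genes gave 3 members of 30. ATG8F, which coats autophagosomes, read 12.9 in the -Fe cells and 8.11 in the +Fe cells. PUB19, a U-box ubiquitin ligase, read 13.2 in the -Fe cells and 8.06 in the +Fe cells. UBC28, a ubiquitin-conjugating enzyme, read 13.6 in the -Fe cells and 8.0 in the +Fe cells. All 3 climbed, by 13, 25 and 35 places, and had log2 differences of 0.67, 0.71 and 0.77. Relative to like brightness these were 0.064, 0.10 and 0.16.

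The other 16 members with a name had a median log2 difference of 0.74, the highest of the classes. AT1G53210, the Na+/Ca2+ exchanger NCL, read 25.8 in the -Fe cells and 16.9 in the +Fe cells and stayed at rank 34. APS4, an ATP sulfurylase of sulfate assimilation, read 25.7 in the -Fe cells and 15.0 in the +Fe cells. WLIM2b, an actin-bundling LIM protein, read 21.3 in the -Fe cells and 12.6 in the +Fe cells. By the authors' deposited table q lay under 0.05 for all 3, and for 13 of the 16, beside 61.3% of all plant probe sets.

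JAL34, a jacalin-related lectin, read 20.3 in the -Fe cells and 12.1 in the +Fe cells. GH9B7, a glycosyl hydrolase of the endoglucanase family, read 18.3 in the -Fe cells and 10.6 in the +Fe cells. MAB1, a subunit of mitochondrial pyruvate dehydrogenase, read 13.9 in the -Fe cells and 8.34 in the +Fe cells. JAL34, GH9B7 and MAB1 climbed 14, 21 and 20 places.

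RBP45B, an RNA-binding protein, read 13.7 in the -Fe cells and 7.89 in the +Fe cells, and EIF4A-2, an RNA helicase of translation initiation, read 12.1 in the -Fe cells and 8.42 in the +Fe cells. SPR1, a microtubule-associated protein of directional growth, read 11.9 in the -Fe cells and 7.83 in the +Fe cells. TET8, a tetraspanin, read 12.9 in the -Fe cells and 7.81 in the +Fe cells. EIF4A-2 fell by 27 places and SPR1 by 2, while RBP45B and TET8 climbed 41 and 26. ZW9 and YLS5 climbed 15 and 41.

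**Figure D4:**
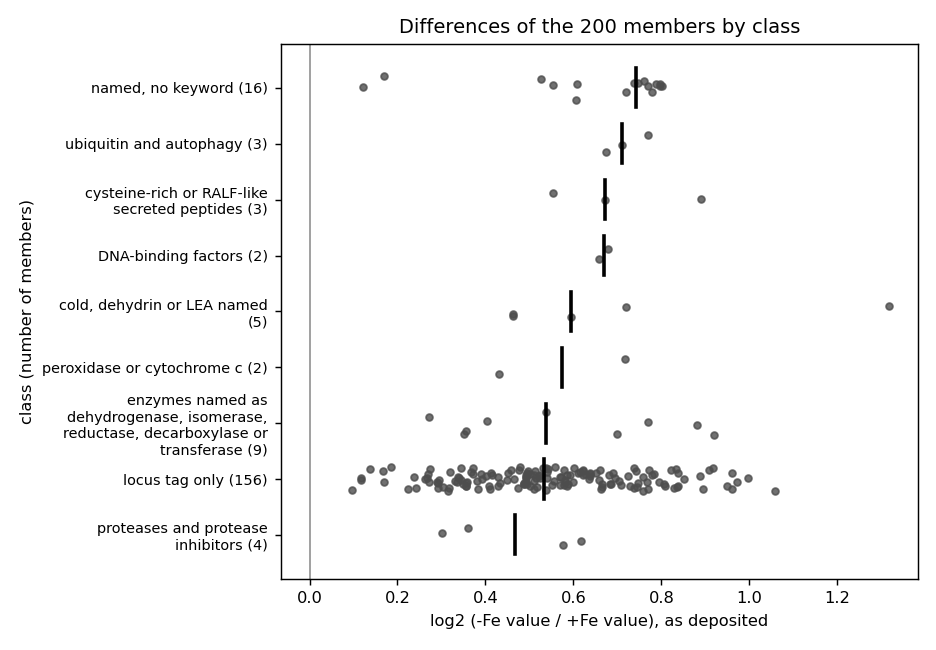
The log2 difference between the deposited -Fe and +Fe values of each of the 200 members (points), grouped by the class its reference name gives, with the number of members in brackets and the class median as a black bar. Every point lies above 0, the class medians run from 0.47 to 0.74, and the 156 members with a locus tag only span 0.10 to 1.06.

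Members with a name had a median log2 difference of 0.67 and those with a locus tag only 0.53. Relative to like brightness 27 of the 44 with a name and 60 of the 156 without lay above 0. Of the 44, 41 stayed in the first 200 of the -Fe cells, and of the 156, 131 did. Members were 44 of the 1700 nuclear probe sets with a name and 156 of the 11721 with a locus tag only.

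Some members lie beside each other in the genome. With at most 2 protein-coding genes between them, 6 pairs of members were found, 3 of them adjacent, against 3 pairs, none adjacent, among the next 200. How many such pairs other sets of 200 genes hold was not counted, so these numbers are not read as clustering. The adjacent pairs were AT2G27710 and AT2G27720, AT4G30450 and AT4G30460, and AT5G19110 and AT5G19120. LCR69 and LCR68 lie with 2 genes between them. Within the adjacent pairs the log2 differences were 0.29 and 0.50, 0.34 and 0.27, and 0.62 and 0.78. Whether probes of such neighbours read each other's transcripts was not tested.

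The rule's edge fell between near-equal values. AT3G51950, rank 200, read 13.7 in the -Fe cells and 7.3 in the +Fe cells. AT5G47030, rank 201 and so outside, read 10.2 in the -Fe cells and 7.3 in the +Fe cells. MT1C, a metallothionein that binds metals, stood at rank 202 with 10.7 in the -Fe cells and 7.28 in the +Fe cells. The last 5 members lay between 7.3 and 7.39 in the +Fe cells, and the 5 probe sets after them between 7.23 and 7.3.

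The label of the cells was set against 44 marker genes of 7 root cell types, of which 10 had a single-gene probe set. None of the 10 was a member. LBD16, a factor of lateral root initiation in the pericycle, was the 1 pericycle or stele marker with such a probe set, with 2.26 in the -Fe cells and 1.60 in the +Fe cells, and rank 2346 in the +Fe cells was the best of any marker. The endodermal marker GSO1 read 1.44 in the -Fe cells and 1.46 in the +Fe cells, and the phloem marker OPS 0.866 in the -Fe cells and 0.768 in the +Fe cells. The 4 cortex markers read 0.497 to 0.764 in the -Fe cells and 0.638 to 0.970 in the +Fe cells. The epidermal EXPA7 and EXPA18 read 0.820 and 0.802 in the -Fe cells and 1.06 and 0.993 in the +Fe cells. The root cap and niche marker AGL42 read 0.507 in the -Fe cells and 0.631 in the +Fe cells. Relative to like brightness LBD16 differed by 0.044, GSO1 by -0.37, OPS by 0.19 and AGL42 by 0.0089. The cortex markers differed by -0.37 to -0.033, and EXPA7 and EXPA18 by -0.47 and -0.36. No xylem marker had a probe set that names it alone. With 1 pericycle marker read, the label could not be checked in depth, and the part of other cell types in the members' values was not tested.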

How the data were processed

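Sorted pericycle cells of Arabidopsis roots were read on Affymetrix arrays, taken here as 1 per condition. Labelling was by a 2-cycle amplification, per the labels' protocols. The authors deposited 1 column per condition of probe set intensity on a linear scale. How it was normalized and scaled is not given in the sources used here. The labels give 3 biological replicates per line, but not whether arrays were averaged. A second table deposited by the authors holds q-values, with their test not stated. The number of arrays limits the precision. The median intensity over all plant probe sets was 0.866 in the -Fe cells and 0.852 in the +Fe cells.

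Gene names follow the platform annotation, which is old, and were updated by gene ID through a table of assembly TAIR10.1, used for names and gene order. It lacked 54 of the 13421 nuclear probe sets' genes, 1 of them a member's. A difference is log2 of the -Fe value minus log2 of the +Fe value, with no pseudocount. Values relative to like brightness subtract the lowess fit (fraction 0.2) of the difference on brightness, fitted to all plant probe sets. Scripts used Python 3.11.15, pandas 2.3.3 and statsmodels 0.14.6 and were tested on simulated data.

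The members, lists and name classes were chosen with earlier results of these data known. Genes named are the 25 brightest, the 8 with the largest and the 8 with the smallest difference, the 8 with the largest fall in rank, ranks next to the edge and the 8 highest entrants. To these were added, after values were seen, all members with a reference name. The planned classes needed product names, and the planned promoter motifs and protein lengths needed sequences, and neither is used here.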

Additional observations from a re-analysis of the deposited data

How the results depend on the processing

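With 1 column of values per condition nothing can be said of replicate error, and no paired analysis was possible for the same reason. The planned counts and medians for ribosomal protein genes were not run, since the tables used here give no product names. The median log2 difference of the members, 0.56, became -0.035 under quantile normalization, -0.039 relative to like brightness and -0.17 with an offset and scale factor removed. The first 2 bring bright probe sets near 0 by design, so no change of direction is read from them. Under the same 3 scalings the 91 members at least 1.5-fold higher became 1, 1 and 0, and with the offset and scale factor removed 2 members were at least 1.5-fold lower. Keeping the top 100 or 400 by definition changes the counts: 48 and 199 were at least 1.5-fold higher, 90 and 353 kept a rank within the list's length without iron, 0 and 65 moved by at least 100 places, and q lay under 0.05 by the authors' deposited table for 67 and 268. Ranking by the mean of both columns left 7 that moved by at least 100 places. Ranks among all plant probe sets put 72 members in the first 200 without iron, where 70 stood in the first 200 with iron. By these ranks 41 members moved by at least 100 places. A stricter size of 2-fold left 2 members, and asking for q under 0.01 by the authors' deposited table left 71, or 35.5%, beside 42.3% of all plant probe sets. Under the other settings the median ran from 0.52 to 0.64 and the counts stayed within 1.5 times those reported. Ranking by the -Fe column gave 12 moves of at least 100 places again, but of other probe sets and upwards.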

Other observations

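The plastid and mitochondrial probe sets that the choice of members set aside included some as bright as the members. Of 69 plastid probe sets 16 were as bright as the 200 in the +Fe cells, and of 23 mitochondrial ones 3 were. The plastid psaB read 32.5 in the -Fe cells and 23.1 in the +Fe cells, and clpP read 33.0 in the -Fe cells and 23.0 in the +Fe cells. The mitochondrial nad4 read 14.9 in the -Fe cells and 10.5 in the +Fe cells. Unlike the members, petA was a little lower in the -Fe cells, at 9.91, than in the +Fe cells, at 10.1. How such transcripts were primed for labelling was not tested.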
